A study of Mus musculus with 6 samples.

Results

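The 10 genes described here encode transcription factors of the immediate early response to T cell receptor signalling, and were examined in mouse Th17 cells. They were the nuclear receptor genes Nr4a1, Nr4a2 and Nr4a3, the zinc finger genes Egr1, Egr2 and Egr3, and the AP-1 genes Fos, Fosb, Jun and Junb. They were chosen by gene name, which gave 10 of the 24182 genes in the deposited gene table. Bulk RNA was measured in 6 libraries of Th17 cells, the CD4 T helper cells that make interleukin 17. In 3 libraries Sirt2, the gene of a NAD-dependent deacetylase, had been knocked out with CRISPR/Cas9 (Sirt2 KO), and 3 libraries were controls (Sirt2 WT). Per the labels' protocols all 6 were stimulated for 72 hours through antibodies to CD3, at 0.5 μg/mL, and to CD28, at 1 μg/mL, while the treatment field of every library reads untreated. The labels give no strain, sex or age of the mice, no guide, and no statement of whether the control cells carried Cas9. The labels leave unsaid whether replicates were separate cultures or animals. The p-values therefore cover the spread between libraries, and that spread may be purely technical.

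The factors are early readers of antigen receptor signals. Stimulation of the receptor activates MAP kinases and calcium signalling, which switch on Fos, Egr and Nr4a genes within minutes to hours, without the need for newly made protein. Fos and Jun proteins pair to form AP-1, which binds DNA beside NFAT and drives cytokine genes such as Il2. In T cells Egr2 and Egr3 and the NR4A receptors also restrain the response, and they are known for roles in anergy, exhaustion and regulatory T cells. Because the response is transient, RNA taken at 72 hours shows what remained or was kept up late in stimulation, not the early peak.

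Values are FPKM, the sequenced fragments of a transcript per kilobase of its length, scaled to the total of the library, so levels of different genes can be set side by side. Without counts in the tables the read depth is unknown. Gene FPKM summed to 303772 to 321734 in a library, with 10642 to 10958 genes at 1 FPKM or more. Sirt2 RNA itself had values of 11.2, 13.5 and 10.9 FPKM in the KO libraries, against 20.7, 19.9 and 21.9 FPKM in the WT libraries, both in the order of their replicate numbers. Its transcript was thus lower in every KO library but still present. Of the KO libraries, replicate 3 stood apart. Across tested genes, which are no independent replicates, the Pearson correlation of its log2(FPKM + 1) values was 0.979 to 0.981 to the other KO libraries and 0.990 to every WT library. For the other pair of KO libraries it was 0.992, and from each of that pair to the WT libraries 0.985 to 0.987. KO replicate 3 was thus nearer to WT than KO replicates 1 and 2 were. These values do not say which of the KO libraries is unusual. Calls among the tested genes of the set are therefore given with and without KO replicate 3. Some other results below are given with all libraries only.

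The cells carried the markers of their label. Of 17 T cell and Th17 genes, 0 were under 1 FPKM in all KO or in all WT libraries. Cd4, the coreceptor, was at 89.4 to 102 FPKM in KO libraries and 91.8 to 93.7 FPKM in WT libraries. Markers of other cells were measured because monocytes, B cells and NK cells also express Fos, Jun, Egr and Nr4a genes. The summed level of 20 myeloid and dendritic cell markers was 47.0 to 48.8 FPKM in KO libraries and 34.4 to 38.3 FPKM in WT libraries, and for 10 of them every KO value exceeded every WT value. The macrophage lysozyme gene Lyz2 was among these 10, at 8.31, 9.44 and 4.24 FPKM in KO, against 1.38, 1.03 and 0.782 FPKM in WT (limma adjusted p = 0.0503, and 0.00160 without KO replicate 3). So were the receptor genes Cd14 and Clec7a, chosen after their values were seen, at 0.881 to 1.49 and 0.500 to 1.11 FPKM in KO, against 0.0245 to 0.121 and 0.0798 to 0.0891 FPKM in WT. Lyz1, another lysozyme gene, was listed at 0 in all KO libraries, and the calprotectin genes S100a8 and S100a9 in all WT libraries. Of the 20 markers, only Xcr1 had every KO value below every WT value, at 0.0476 to 0.0644 against 0.0745 to 0.115 FPKM. Levels were mostly low, with 14 markers under 1 FPKM in every KO library and 16 in every WT library. The marker Ctss gave the largest part of each sum. Its KO values of 28.4, 26.3 and 31.4 FPKM overlapped with its WT values of 26.6, 28.0 and 28.4 FPKM. For 14 B cell markers the sum was 60.4 to 68.8 FPKM in KO libraries and 52.8 to 54.5 FPKM in WT libraries, with 6 higher in all KO libraries. The B cell gene Ms4a1, which encodes CD20, was listed at 0 in all WT libraries. For the 11 CD8, cytotoxic and NK cell markers in the table the sum was 26.2 to 29.6 FPKM in KO libraries and 9.51 to 10.1 FPKM in WT libraries, with 6 higher in all KO libraries, 2 of 5 tested called as higher (Gzmb and Gzmc) and Gzmk listed at 0 in all WT libraries. Gzmb gave the largest part of each KO sum of this list. Cd8b1 was at 3.24, 3.18 and 5.92 FPKM in KO, against 3.75, 4.89 and 3.84 FPKM in WT. Prf1, Klrd1 and Eomes also overlapped between groups. Of all table genes, 3.79 percent had every KO value above every WT value. These marker sums stayed above every WT library in KO replicate 3, but single markers differed. KO replicate 3 was the lowest KO library for 10 of the 45 markers in the table. Among them were Lyz2 and Gzmb, the latter at 19.2, 18.1 and 11.6 FPKM in KO, against 2.66, 2.76 and 2.97 FPKM in WT. For the 10 factor genes KO replicate 3 was the lowest in all. The share of all genes with KO replicate 3 lowest was not counted. Under 1 FPKM in every KO library were 6 of 11 cytotoxic and NK, 14 of 20 myeloid and 8 of 14 B cell markers. At such levels the order of libraries is uncertain, so the counts for markers and factors are not read against each other. Cd74, the invariant chain gene, was at 30.9, 29.1 and 22.7 FPKM in KO, against 24.5, 23.6 and 25.98 FPKM in WT, and was called as higher without KO replicate 3 (limma adjusted p = 0.0391), as were Gzmb, Lyz2 and Ighm. H2-Ab1, also of the B cell list, was called as lower in that fit (log2 fold change -0.57, limma adjusted p = 0.0232). It was at 2.71, 2.14 and 9.90 FPKM in KO, against 3.94, 4.40 and 3.89 FPKM in WT. The part of other cells in the results below was not tested. In bulk RNA, fewer cells of a type and less RNA per cell cannot be told apart.

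Junb, a Jun family protein that Th17 cells need for their identity, was by far the most abundant of the set. Its mean level was 328.8 ± 61.9 FPKM in KO libraries and 288.9 ± 7.08 FPKM in WT libraries (SD, n = 3 each), and its mean over the 6 libraries lay above that of 98.6 percent of the 10873 genes that passed the filter of 1 FPKM in at least 3 libraries. Nr4a1, the orphan receptor also called Nur77 and a common reporter of receptor signal strength, came next at 79.3 ± 23.0 FPKM in KO libraries and 55.9 ± 1.65 FPKM in WT libraries. Egr1 followed at 19.8 ± 2.37 FPKM in KO libraries and 17.6 ± 1.07 FPKM in WT libraries. At the bottom stood Egr3, at 3.31 ± 0.893 FPKM in KO libraries and 2.37 ± 0.481 FPKM in WT libraries, and Fosb, at 1.27 ± 0.749 FPKM in KO libraries and 0.785 ± 0.116 FPKM in WT libraries. Fosb was the only one of the 10 to miss the filter, which left 9 tested genes.

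Both genotypes shared the top 3 and the bottom 4 of this order. In KO, Egr2, Nr4a2 and Jun stood in the middle at 14.5, 13.8 and 13.0 FPKM, and Egr2 and Nr4a2, Nr4a2 and Jun, Nr4a3 and Fos, and Fos and Egr3 each overlapped with their neighbour. In WT the middle ran Jun, Egr2 and Nr4a2 at 13.6, 12.6 and 10.1 FPKM, and 0 neighbours overlapped. Composition was steadier in some families than in others. Nr4a1 made up 77.9 to 79.7 percent of the summed NR4A level in KO and 77.5 to 78.9 percent in WT. Junb made up 95.6 to 96.6 percent of the sum of Jun and Junb in KO and 95.4 to 95.6 percent in WT. Fosb made up 16.9, 20.1 and 9.09 percent of the sum of Fos and Fosb in KO, against 13.9, 12.8 and 16.2 percent in WT, so that KO libraries lay on both sides of WT. Egr3 made up 7.82 to 10.2 percent of the EGR sum in KO and 6.13 to 8.21 percent in WT, and the groups overlapped.

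**Figure D1:**
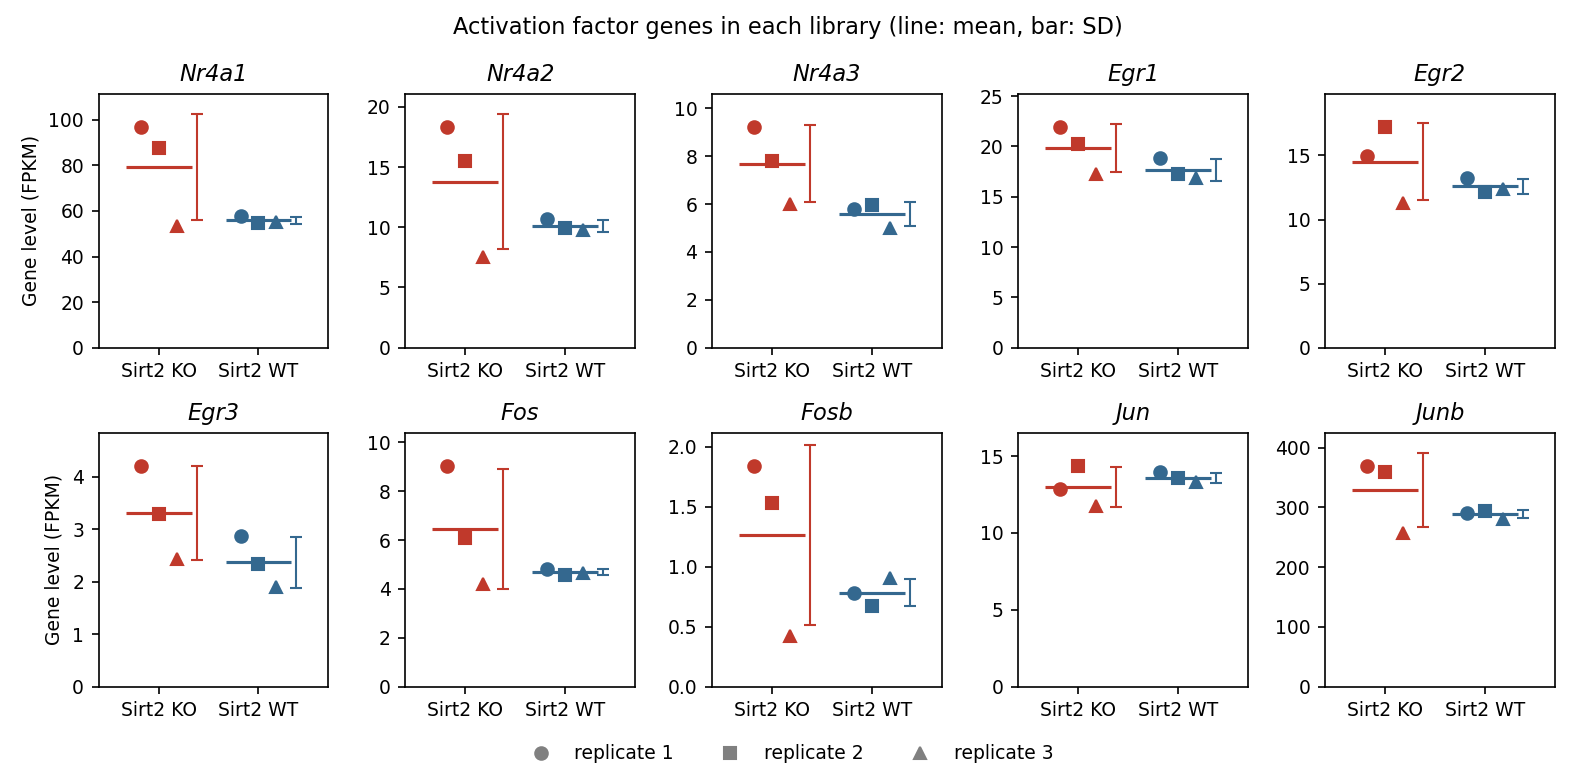
Gene level in FPKM of each of the 10 genes in the 3 Sirt2 KO and 3 Sirt2 WT libraries, with a symbol per replicate, a line for the mean and a bar for the SD. In 9 of the 10 genes KO replicates 1 and 2 lie above all WT libraries, and KO replicate 3 is the lowest KO library in all 10.

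The promoters of 5 of these genes are shown because they hold, or lack, the core of the cyclic AMP response element, to which CREB and AP-1 related factors bind. RefSeq promoter sequences (GRCm38.p6) were matched by symbol for 8 of the genes, Egr1 and Egr3 not among them, and for 6 of these an entry began within 50 bases of the start of the transcript with the highest mean. Shown are the 250 bases before the start site, 5′ to 3′ on the gene's own strand, with capitals for TGACG or its reverse complement CGTCA. They lie at chr15:101266596-101266845 (plus strand) for Nr4a1, chr10:67537619-67537868 (plus) for Egr2, chr12:85473640-85473889 (plus) for Fos, chr4:95052223-95052472 (minus) for Jun and chr8:84978749-84978998 (minus) for Junb.
Nr4a1: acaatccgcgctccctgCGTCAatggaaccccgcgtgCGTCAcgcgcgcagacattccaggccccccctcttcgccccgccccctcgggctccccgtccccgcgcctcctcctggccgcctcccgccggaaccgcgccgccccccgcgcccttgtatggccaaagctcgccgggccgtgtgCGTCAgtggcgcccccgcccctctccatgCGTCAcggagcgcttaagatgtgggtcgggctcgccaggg
Egr2: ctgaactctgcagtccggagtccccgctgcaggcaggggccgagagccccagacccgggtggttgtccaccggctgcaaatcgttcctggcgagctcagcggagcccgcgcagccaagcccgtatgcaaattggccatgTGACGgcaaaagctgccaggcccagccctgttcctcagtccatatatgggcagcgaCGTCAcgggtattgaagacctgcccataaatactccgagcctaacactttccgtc
Fos: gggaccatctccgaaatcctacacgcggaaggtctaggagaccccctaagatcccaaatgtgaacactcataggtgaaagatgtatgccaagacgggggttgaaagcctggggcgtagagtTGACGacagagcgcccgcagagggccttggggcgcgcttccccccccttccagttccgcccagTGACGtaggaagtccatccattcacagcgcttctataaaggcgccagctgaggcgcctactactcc
Jun: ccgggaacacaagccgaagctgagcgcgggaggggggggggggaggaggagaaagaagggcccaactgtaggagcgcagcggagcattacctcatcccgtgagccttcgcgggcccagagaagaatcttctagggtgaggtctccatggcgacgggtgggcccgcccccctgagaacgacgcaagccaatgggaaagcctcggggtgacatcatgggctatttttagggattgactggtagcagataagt
Junb: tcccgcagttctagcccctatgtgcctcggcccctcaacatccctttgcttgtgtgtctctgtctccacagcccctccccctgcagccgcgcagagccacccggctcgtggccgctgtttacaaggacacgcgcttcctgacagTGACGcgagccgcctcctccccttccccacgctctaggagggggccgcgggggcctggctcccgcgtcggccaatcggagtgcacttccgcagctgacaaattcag

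Nr4a1 held 4 copies, Egr2 and Fos 2 each, Junb 1 and Jun 0, and Fosb, not shown, held 1. Of 32851 promoters of the same length, 17.8 percent held at least 1 copy on either strand, 3.90 percent at least 2 and 0.137 percent at least 4. In the Fos window one copy lay 66 to 62 bases before the start site, with a TATA box (TATAAA) at 33 to 28 bases, a motif in 12.4 percent of promoters. Egr2 held a CArG box, the site of serum response factor, 72 to 63 bases before its start, a motif in 1.47 percent of promoters. Nr4a1 held the EGR site GCGNGGGCG 60 to 52 bases before its start, and Fosb held it at 50 to 42 bases, a motif in 4.70 percent of promoters. The AP-1 site TGANTCA, the full element TGACGTCA and the NR4A site AAAGGTCA were searched on both strands and matched in 0 of these windows. The RefSeq starts of Nr4a2 and Nr4a3 stood at -8965 and 152 bases from the start of the main transcript (negative is upstream), so their windows are not shown. These matches are descriptions of the sequence in this window. Only exact matches to the patterns were counted, so near matches, such as TGACATCA in the Jun window, were not.

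The comparison of genotypes asked whether loss of Sirt2 went with another level of these factors late in stimulation. In KO replicates 1 and 2 all of them except Jun lay above every WT library, and in KO replicate 3 they did not, apart from Nr4a3. With all 6 libraries 0 of 9 tested genes passed the threshold (limma on log2(FPKM + 1), adjusted p under 0.05 over all tested genes), where 0.11 percent of all tested genes passed in either direction. One of the 9, Nr4a3, had an unadjusted p under 0.05, against 5.61 percent of all tested genes. For 0 of the 10 did the authors' deposited table give a q-value under 0.05, against 0.422 percent of all genes, and Nr4a1, Nr4a3, Egr3 and Fos had a p-value under 0.05, against 4.74 percent of all genes. The median log2 fold change of the 9 was 0.33, beside -0.03 over all tested genes. Above 0 were 8 of the 9, and 4491 of all 10873 tested genes. These 8 rose and fell together across the 6 libraries (Pearson r of 0.71 to 0.99 between pairs), so they are not separate observations.

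Among the nuclear receptors, Nr4a1 stood at 97.0, 87.6 and 53.2 FPKM in KO, against 57.8, 54.8 and 55.0 FPKM in WT, in the order of replicate numbers as for all values below. The first and second KO libraries were far above WT, and the remaining one was just below it. The log2 fold change was 0.45 (SE 0.200, 95% interval -0.01 to 0.92, limma adjusted p = 0.843). Nr4a2, also called Nurr1, was at 18.4, 15.5 and 7.52 FPKM in KO, against 10.7, 9.91 and 9.74 FPKM in WT. Here KO replicate 3 was lower than every WT library, at 0.743 of the WT mean, while the mean of the other KO libraries was 1.67 times the WT mean. The log2 fold change over all libraries was 0.33 (SE 0.273, limma adjusted p = 0.870). Nr4a3, also called NOR1, was at 9.24, 7.79 and 6.02 FPKM in KO, against 5.80, 5.96 and 4.99 FPKM in WT. It was the only one of the 10 whose groups did not overlap, with KO replicate 3 barely above the highest WT library, and 4.28 percent of all tested genes had all KO above all WT libraries. Its log2 fold change was 0.38 (SE 0.142, 95% interval 0.05 to 0.72, limma adjusted p = 0.843).

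Egr1 and Egr2 had smaller fold changes than the nuclear receptors, and Egr3 one of like size. Egr1, the family member most often used as a read-out of MAP kinase signalling, was at 22.0, 20.2 and 17.3 FPKM in KO, against 18.9, 17.3 and 16.8 FPKM in WT. Egr2 was at 14.99, 17.2 and 11.3 FPKM in KO, against 13.2, 12.1 and 12.4 FPKM in WT. In both genes the groups overlapped through KO replicate 3, and the log2 fold changes were 0.15 (SE 0.0979, limma adjusted p = 0.859) for Egr1 and 0.17 (SE 0.138, limma adjusted p = 0.870) for Egr2. Egr3, which acts with Egr2 in restraining T cells, was at 4.21, 3.30 and 2.42 FPKM in KO, against 2.87, 2.33 and 1.91 FPKM in WT. Its WT libraries were themselves spread 1.503-fold from lowest to highest, the widest of the 10, and its fold change was 0.34 on the log2 scale (SE 0.173, limma adjusted p = 0.843).

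Of the AP-1 genes, Fos was at 9.05, 6.09 and 4.19 FPKM in KO, against 4.83, 4.58 and 4.67 FPKM in WT, and the difference was 0.34 on the log2 scale (SE 0.212, limma adjusted p = 0.859). The KO libraries ran 2.16-fold from lowest to highest and the WT libraries 1.05-fold. Fosb was at 1.84, 1.54 and 0.419 FPKM in KO, against 0.777, 0.673 and 0.905 FPKM in WT. It was both the highest relative to WT in KO replicates 1 and 2, at 2.15 times the WT mean, and the lowest in KO replicate 3, at 0.534 times. In a fit without the filter its difference was 0.28 on the log2 scale (SE 0.277, limma adjusted p = 0.862). Junb was at 369.9, 358.9 and 257.5 FPKM in KO, against 291.1, 294.6 and 281.0 FPKM in WT, and the difference was 0.17 on the log2 scale (SE 0.133, limma adjusted p = 0.870). Its KO libraries thus lay on either side of the narrow WT range.

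Jun, which encodes c-Jun, the founding partner of Fos, went another way. It was at 12.9, 14.4 and 11.8 FPKM in KO, against 13.9, 13.6 and 13.3 FPKM in WT. KO replicates 1 and 3 were below all WT libraries and KO replicate 2 above them. The log2 fold change was -0.06 (SE 0.0840, 95% interval -0.26 to 0.13, limma adjusted p = 0.897). It was the only one of the 9 tested genes with a value below 0.

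**Figure D2:**
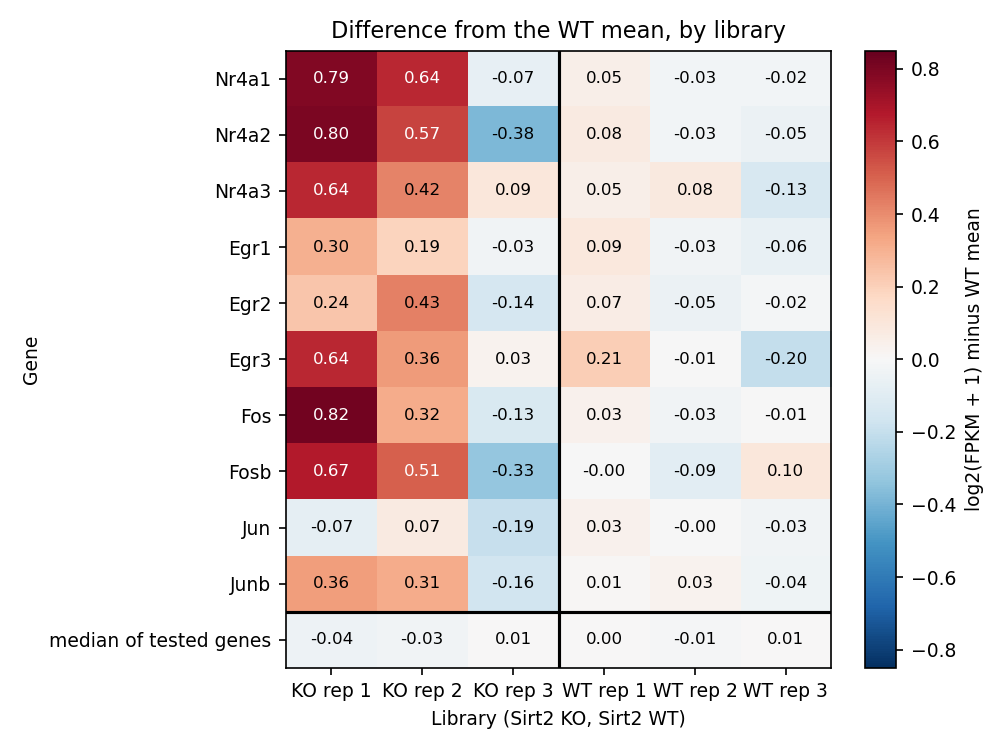
Difference of log2(FPKM + 1) from the WT mean for each of the 10 genes (rows) in each library (columns), with the median of all tested genes in the bottom row. KO replicates 1 and 2 are positive for every gene except Jun in replicate 1, and KO replicate 3 runs from -0.38 for Nr4a2 to 0.09 for Nr4a3.

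The median difference of the 10 genes from the WT mean was 0.64 in the first KO library, 0.39 in the second and -0.14 in KO replicate 3, on the log2 scale. Over all tested genes these medians were -0.04, -0.03 and 0.01. Of the 9 tested genes, 8 had KO replicates 1 and 2 above all WT libraries, which held for 18.9 percent of all tested genes. With Fosb it was 9 of 10, against 12.3 percent of all table genes. Within KO, replicate 3 was the lowest library for all 10 genes, replicate 1 the highest for 8 and replicate 2 for 2. The SD between KO libraries exceeded that between WT libraries in all 10, by 1.86-fold for Egr3 to 19.2-fold for Fos. The shares of all genes with this order of KO libraries, or with the larger SD in KO, were not counted. These counts are therefore not read as particular to the set. Over all tested genes the median coefficient of variation was 11.8 percent in KO and 5.61 percent in WT, and that of Nr4a2 was 40.7 percent in KO and 5.13 percent in WT.

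Leaving out KO replicate 3 moved the result most. Of the 9 tested genes 6 were then called as higher in KO and 0 as lower, where 4 percent of all 10726 tested genes were called as higher and 6.14 percent as lower. The calls were Nr4a1 (log2 fold change 0.71, SE 0.0598, limma adjusted p = 0.00422), Nr4a2 (0.69, SE 0.0842, limma adjusted p = 0.00922), Nr4a3 (0.53, SE 0.0999, limma adjusted p = 0.0253), Junb (0.33, SE 0.0487, limma adjusted p = 0.0153), Egr2 (0.33, SE 0.0763, limma adjusted p = 0.0401) and Fos (0.57, SE 0.139, limma adjusted p = 0.0458). The full NR4A family was among them. Egr1 (0.25, limma adjusted p = 0.0647) and Egr3 (0.50, limma adjusted p = 0.0651) narrowly missed the threshold. Jun was at 0.00060 (95% interval -0.16 to 0.16, limma adjusted p = 0.996). KO replicate 3 was the lowest KO library for all 10 genes, so leaving it out raises every KO mean by construction. This fit rests on KO replicates 1 and 2 alone and is detailed after the values were seen. Its calls, here and in other lists, describe those libraries and give no separate support for a difference by genotype. Without KO replicate 1 or 2, or without any one WT library, 0 of the 9 were called, with 0 or 1 at an unadjusted p under 0.05. Without KO replicate 1, where 3.21 percent of all tested genes had such a p, the log2 fold change of Nr4a1 was 0.29 and that of Nr4a2 0.09.

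**Figure D3:**
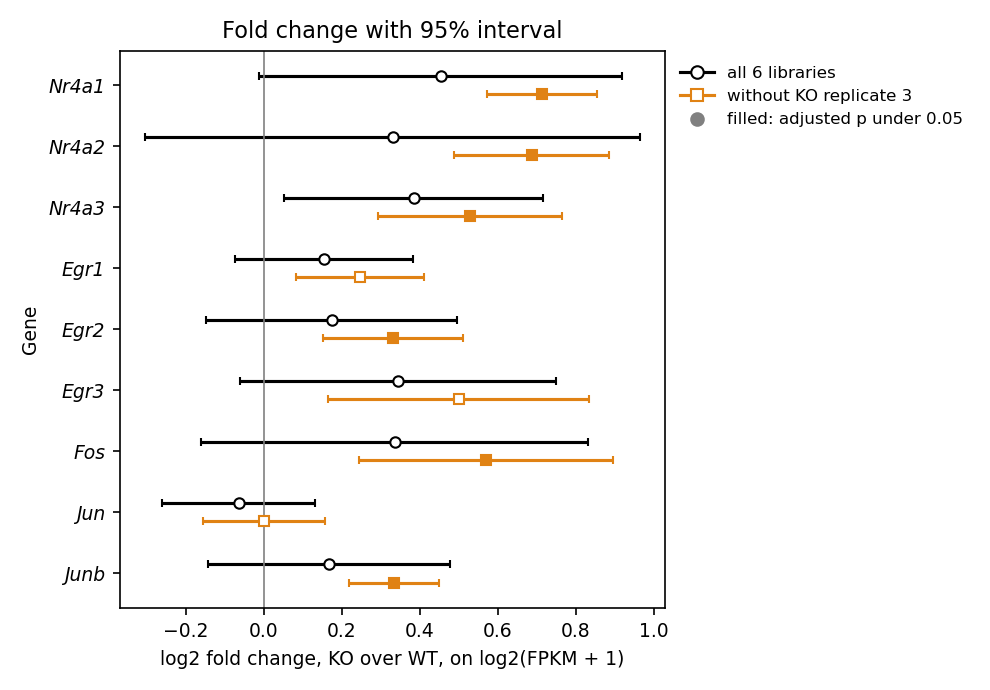
log2 fold change of KO over WT with its 95% interval for the 9 tested genes, from all 6 libraries (black circles) and without KO replicate 3 (orange squares), filled where the adjusted p is under 0.05. No gene is filled with all libraries and 6 are filled without KO replicate 3, while Jun lies at about 0 in both.

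Transcript length moved with the libraries. Spearman's rho between transcript length and a library's difference from the WT libraries, a description across 10869 genes, was -0.33, -0.46 and 0.23 for KO replicates 1 to 3. For WT libraries, each set against the others, it ran from -0.24 to 0.25. The main transcripts of the 10 genes ran from 1809 bases for Junb to 5720 bases for Nr4a3, around a median of 2595 bases for tested genes. With length and GC trends removed the log2 fold change was 0.46 for Nr4a1, 0.46 for Nr4a3 and -0.04 for Jun, and 0 of the 9 were called, where 0.156 percent of all tested genes were. With these trends removed and KO replicate 3 left out, a combination chosen after seeing the data, 5 of 9 were called as higher, where 5.13 percent of all tested genes were. Fos was then at 0.56 (limma adjusted p = 0.0728) and Nr4a2 at 0.77 (limma adjusted p = 0.0106).

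At the level of transcripts the table held 35 for these genes, of which 17 were tested. 0 of the 17 passed (limma, adjusted over 19184 tested transcripts, of which 0.0417 percent passed), and 1 had an unadjusted p under 0.05, against 5.57 percent of tested transcripts. The count was also 0 without KO replicate 3, against 0.0273 percent of tested transcripts. That one was the main Nr4a1 transcript, ENSMUST00000023779 (GRCm38 chromosome 15, 101266846 to 101274795, plus strand, 7 exons), whose promoter is printed above. It was at 119.2, 92.1 and 66.1 FPKM in KO, against 56.2, 50.2 and 52.9 FPKM in WT. All KO libraries were above all WT libraries, KO replicate 3 included, which held for 4.71 percent of tested transcripts. The log2 fold change was 0.75 (SE 0.211, 95% interval 0.23 to 1.27, limma adjusted p = 0.767). The authors' deposited table gives this transcript a q-value of 0.00668, where 1.82 percent of all transcripts had a q-value under 0.05, and does not mark it as significant. The 1.6 percent of transcripts marked there all had an absolute log2 fold change of at least 1.00.

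The other abundant Nr4a1 transcript, ENSMUST00000228985, starts upstream at 101254269 and ends at the same base. It was at 16.7, 30.0 and 7.81 FPKM in KO, against 23.9, 25.6 and 23.0 FPKM in WT (log2 fold change -0.57, SE 0.439, limma adjusted p = 0.914). KO replicate 2 was above all WT libraries and the others below, and without KO replicate 3 the log2 fold change was -0.10 (limma adjusted p = 0.876). As a share of the summed Nr4a1 transcript level, the main transcript made up 85.6, 73.2 and 84.7 percent in KO, against 67.1, 63.1 and 65.8 percent in WT. The difference was 15.9 percentage points, and the exact two-sided permutation test, chosen after the shares were seen, gave p = 0.1, the smallest that 3 against 3 allows. As the shares had been seen not to overlap, this p was fixed in advance and adds nothing to that. Of tested transcripts from genes with more than 1 transcript, 5.99 percent had a share whose KO values all exceeded its WT values. The pair shares 2351 exon bases, with 126 bases found only in the main transcript and 202 only in the upstream one, so their split rests on reads over those bases.

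**Figure D4:**
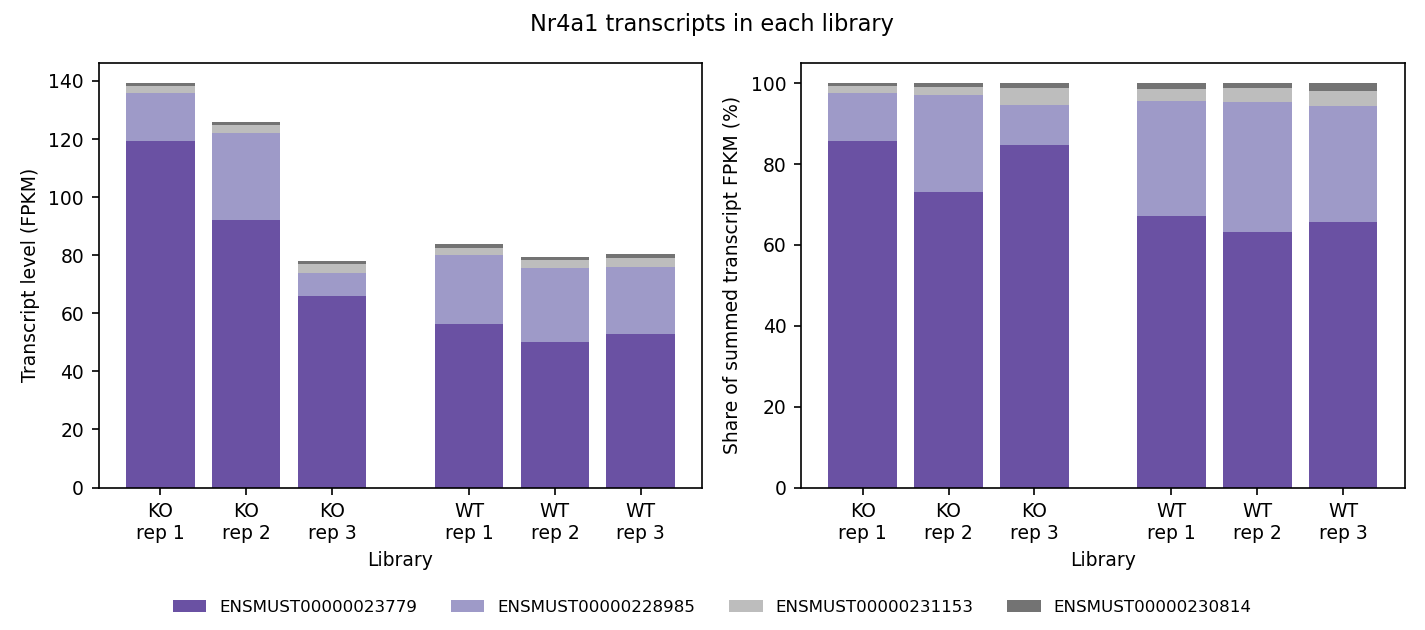
Level in FPKM (left) and share of the summed level in percent (right) of the 4 Nr4a1 transcripts in the table, as stacked bars for the 3 KO and 3 WT libraries. The main transcript makes up 73.2 to 85.6 percent in KO and 63.1 to 67.1 percent in WT.

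Other transcripts shifted less evenly. The main Egr2 transcript, ENSMUST00000048289, made up 68.3, 77.4 and 65.9 percent of its gene in KO, against 64.6, 60.4 and 57.6 percent in WT, so that all KO libraries were above all WT libraries here too. The main Nr4a2 transcript, ENSMUST00000028166, ranged from 50.6 to 89.2 percent in KO and from 42.7 to 84.9 percent in WT, and the groups overlapped throughout. The single Fosb transcript above 1 FPKM, ENSMUST00000003640, made up 79.9 to 90.1 percent in KO and 82.8 to 84.6 percent in WT. Gene values of the set equalled the length-weighted sum of transcript values over the union of exons, so for the 7 genes with more than 1 transcript a gene value is lower than the sum of its transcripts.

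Genes around these factors were read from lists, which were chosen with earlier results known. In the fit without KO replicate 3, 4 percent of all tested genes were called as higher and 6.14 percent as lower. Those shares stand beside every count from that fit in the lists below. Of 13 tested AP-1 and related bZIP genes outside the set, 0 rose or fell with all libraries, and their median was 0.03. Batf, the AP-1 factor that opens chromatin in Th17 cells, was at 72.6, 71.0 and 57.5 FPKM in KO, against 54.9, 57.4 and 60.6 FPKM in WT (limma adjusted p = 0.843). Atf3, Fosl2 and Atf7 also overlapped between groups (log2 fold changes 0.16, 0.12 and -0.22). When KO replicate 3 was left out, Batf and Jund were called as higher (0.31 and 0.23, limma adjusted p = 0.0232 and 0.0300) and 0 of 13 as lower.

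Cofactors were mixed. Nab1 and Nab2 encode corepressors that bind EGR proteins. Nab2, itself an EGR target, was at 15.2, 15.6 and 12.5 FPKM in KO, against 13.2, 11.6 and 12.4 FPKM in WT, and Nab1 at 19.1, 20.7 and 24.9 FPKM in KO, against 24.9, 24.1 and 23.9 FPKM in WT. Both had limma adjusted p = 0.843. When KO replicate 3 was left out, Nab2 was called as higher (log2 fold change 0.30, limma adjusted p = 0.0406) and Nab1 as lower (-0.28, limma adjusted p = 0.0311). Rxra, the retinoid receptor that dimerises with Nr4a1 and Nr4a2, was at 17.04, 14.8 and 9.86 FPKM in KO, against 9.90, 10.7 and 9.31 FPKM in WT (log2 fold change 0.41, limma adjusted p = 0.843, and 0.63 with adjusted p = 0.0118 without KO replicate 3). Its paralog Rxrb was at 16.3 to 16.9 FPKM in KO libraries and 16.3 to 16.7 FPKM in WT libraries.

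Upstream of the factors, 0 of 16 tested genes for serum response factor, its cofactors and MAP kinases rose or fell, with all libraries or without KO replicate 3. The median of this list was -0.01 with all libraries. The lowest p was that of Map2k4, a kinase of the JNK branch, at 13.2, 14.4 and 15.3 FPKM in KO, against 16.8, 15.6 and 16.1 FPKM in WT (limma adjusted p = 0.843). Its KO libraries were all below the WT libraries, which held for 6.88 percent of tested genes. Elk3, Mef2d and Mapk9 had log2 fold changes of -0.07, -0.07 and -0.09.

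Feedback inhibitors of MAP kinases were measured in 9 tested genes, of which 0 rose or fell with all libraries (median 0.03). Dusp5, a nuclear phosphatase of ERK, was at 42.7, 34.9 and 36.7 FPKM in KO, against 31.2, 31.8 and 33.03 FPKM in WT (log2 fold change 0.24, limma adjusted p = 0.843). Its KO values all exceeded its WT values, and those of Dusp10 likewise. In all, this held for 3 of the 10 listed genes, against 3.79 percent of all table genes. Spry2, the other of these, missed the filter at 0.387 to 0.454 FPKM in KO, against 0.132 to 0.263 FPKM in WT. Dusp2, another nuclear phosphatase, was at 34.9, 37.4 and 24.9 FPKM in KO, against 25.7, 26.9 and 24.5 FPKM in WT, the pattern of the factors themselves. Without KO replicate 3, Dusp2 (0.48, limma adjusted p = 0.0109) and Dusp10 (0.35, limma adjusted p = 0.0253) were called as higher and Spred2 (-0.33, limma adjusted p = 0.0464) as lower. With all libraries Dusp10 and Dusp1 had log2 fold changes of 0.25 and 0.14.

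Among 20 other tested immediate early genes 0 rose or fell with all libraries (median 0.07). Klf10, a TGF-beta inducible repressor, was at 7.00, 6.80 and 7.79 FPKM in KO, against 8.58, 8.94 and 9.02 FPKM in WT (log2 fold change -0.27, limma adjusted p = 0.806). Rgs1, a regulator of chemokine receptor signalling, was at 12.9, 13.5 and 19.8 FPKM in KO, against 19.9, 19.4 and 20.7 FPKM in WT. Btg1 and Rel had log2 fold changes of 0.16 and 0.36 (limma adjusted p = 0.843 each). Without KO replicate 3, 4 of 20 were called as higher (Klf4, Gadd45b, Ccn1 and Rgs2) and 3 as lower (Klf10, Myc and Rgs1). Gadd45b, a stress sensor, was at 80.1, 74.7 and 46.5 FPKM in KO, against 56.4, 53.4 and 58.7 FPKM in WT, and Myc at 80.3, 87.0 and 110.9 FPKM in KO, against 102.0, 101.0 and 102.1 FPKM in WT. Immediate early genes therefore stood on both sides in KO replicates 1 and 2.

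Genes described as targets of these factors in T cells did not move as one. Of 18 tested, 0 rose or fell with all libraries, and the median was 0.03. Of the 27 listed, 7 had every KO value above every WT value (Il3, Ifng, Fasl, Crtam, Lag3, Tigit and Ikzf2, named after their values were seen), against 3.79 percent of all table genes. Of these, Ifng, Fasl, Crtam and Ikzf2 missed the filter and were not tested. Ifng, the interferon gamma gene, was at 0.893, 1.08 and 0.547 FPKM in KO, against 0.153, 0.166 and 0.102 FPKM in WT. The smallest p-values were those of the inhibitory receptor genes Tigit (log2 fold change 0.40) and Lag3 (0.48) and of the cytokine genes Il3 (0.59) and Csf2 (0.50), each with limma adjusted p = 0.843. Lag3 was at 12.6, 11.8 and 19.1 FPKM in KO, against 10.6, 9.89 and 9.16 FPKM in WT, so that KO replicate 3 was its highest library. Without KO replicate 3, 2 of 16 were called as higher, the cytokine gene Il2 (limma adjusted p = 0.0177) and Pdcd1, which encodes PD-1 (0.43, limma adjusted p = 0.0417). In that fit 5 were called as lower (Cblb, Dgka, Ndrg1, Tnfrsf9 and Socs3). Cblb and Dgka restrain receptor signalling and are known EGR2 and EGR3 targets. Cblb was at 12.3, 12.8 and 23.1 FPKM in KO, against 18.4, 18.2 and 17.3 FPKM in WT, and Dgka at 12.2, 13.8 and 19.4 FPKM in KO, against 18.4, 16.7 and 18.2 FPKM in WT. In both, KO replicates 1 and 2 were below and KO replicate 3 above all WT libraries, the reverse of the order seen for Egr2.

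**Figure D5:**
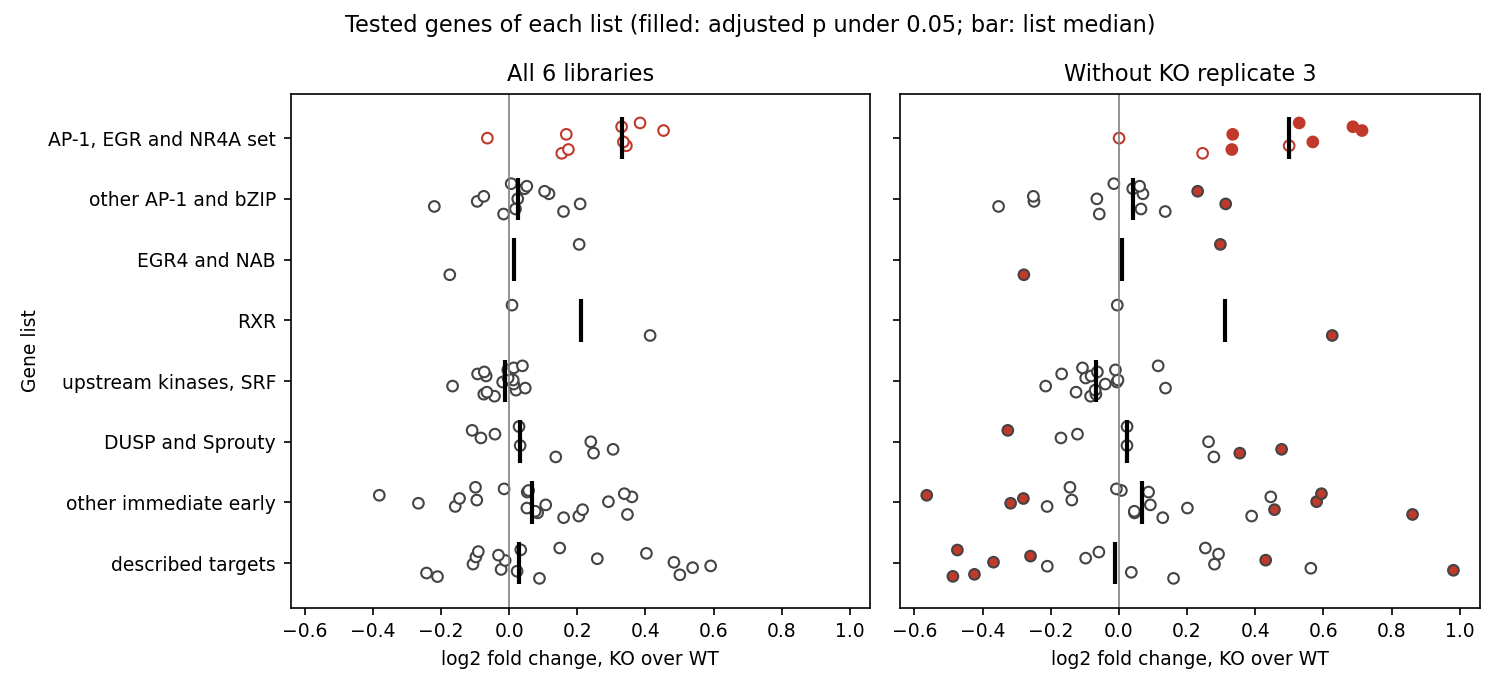
log2 fold change of KO over WT for the tested genes of the set and of 7 related lists, with all libraries (left) and without KO replicate 3 (right), filled where the adjusted p is under 0.05, with a bar at the list median. With all libraries 0 genes are filled. Without KO replicate 3, 6 genes of the set are filled, all to the right of 0, and 4 of the 7 other lists have filled genes on both sides.

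For the most abundant gene of each family, the 3 tested genes most alike across the 6 libraries were found by Pearson correlation of log2(FPKM + 1). Unnamed loci and pseudogenes were left out of this search. These are descriptions over 6 libraries in which KO replicates 1 and 2 stand apart. For Nr4a1 they were Ndufc1, a subunit of respiratory complex I (r = 0.9998), the mitochondrial enzyme gene Echs1 (0.995) and the mitochondrial tRNA gene mt-Tf (0.995). Ndufc1 was at 12.2, 11.2 and 7.53 FPKM in KO, against 8.07, 7.79 and 7.71 FPKM in WT. For Junb they were Uqcr10, a subunit of respiratory complex III (0.997), the ribosomal protein gene paralog Rps27l (0.996) and the syntaxin gene Stx11 (0.993). For Egr1 they were Egr3 (0.982), the chaperone subunit gene Pfdn4 (0.977) and Acyp1 (0.976), and for Fos they were Dclk1 (0.993), the cytokine gene Tnfsf11, which encodes RANKL (0.991), and the costimulatory ligand gene Cd80 (0.990). Tnfsf11 was at 51.5, 34.8 and 20.6 FPKM in KO, against 22.9, 22.9 and 22.4 FPKM in WT, and all 12 of these genes had limma adjusted p of 0.843 or more with all libraries.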

How the data were processed

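The authors deposited gene and transcript tables in FPKM, with columns for each of the 6 libraries. Tools listed in the submitters' processing notes (HISAT2, StringTie, cutadapt, FastQC, edgeR, DESeq2) have no version or role there. The notes name the build mm9, but 73240 of 73430 transcript IDs found in GENCODE M21 (GRCm38) had the same position there, the 35 of these genes included. The deposited fold column, a ratio of KO over WT mean FPKM, its log2 column and the p-value and q-value columns are the authors'; no source used here says which tool made them. At most 30.0 percent of low single-exon values fell on whole multiples of a common step within 0.02 steps, so reads were not recovered.

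Genes at 1 FPKM or more in at least 3 libraries were compared on log2(FPKM + 1), which understates changes of low genes, with limma 3.58.1 (R 4.3.3), a mean trend and Benjamini-Hochberg adjustment over all tested genes. The scripts were tested on simulated data with known answers. Alternatives were median scaling, no filter, 5 FPKM, a pseudocount of 0.1, no trend, adjusted p under 0.01, the replicate block, length and GC trends removed, and each library left out. Genes and lists were chosen with earlier results of these data known. Named were the 10 genes and, per list, called genes and up to 4 of smallest p; genes called only without KO replicate 3 were added after their values were seen. Gene Ontology tables were not used.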

Additional observations from a re-analysis of the deposited data

How the results depend on the processing

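With all libraries 0 of the 9 tested genes were called, and this held for median scaling, no filter (10 tested), 5 FPKM (7 tested), no mean trend, a pseudocount of 0.1, the stricter adjusted p of 0.01 and removed length and GC trends. Over the fits that leave out libraries the count ran from 0 to 6, the 6 being without KO replicate 3. The count over all genes was 12 (10 higher, 2 lower), 5 at the 5 FPKM filter, 7 at adjusted p under 0.01, and 0 (KO replicate 1 out) to 1088 (KO replicate 3 out). It was 6 with KO replicate 2 out, and 6, 1 and 4 with WT replicates 1, 2 and 3 out in turn. With KO replicate 3 out and length and GC trends removed it was 958, and 5 of the 9 genes were called. The count of transcripts was 8, 4 without the filter and 1 to 6 with a library left out. Jun was -0.06 with all libraries, ran from -0.13 to 0.00060 with a library left out, the highest without KO replicate 3, and was 0.036 with that library left out and length and GC trends removed. In the other 8 genes the sign held in every alternative. Same-numbered KO and WT libraries did not deviate together (correlations of deviations 0.0067, -0.017 and -0.076, and no KO library correlated best with its own number), so the numbers give no pairing; with the replicate block 13 genes, 0 of the 9 and 3 transcripts were called. No counts were given, so precision from depth cannot be stated, and the values under 1 FPKM of Fosb rest on unknown read numbers.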

Other observations

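Some genes of the target list had KO libraries on both sides of WT, and were chosen after their values were seen. Tnfrsf9, which encodes the costimulatory receptor 4-1BB, was at 42.0 FPKM in KO replicate 3 and at 13.6 and 14.4 FPKM in KO replicates 1 and 2, against 18.4 to 21.2 FPKM in WT. Ndrg1, a stress and hypoxia responsive gene linked to T cell anergy, was at 25.3 FPKM in KO replicate 3 and at 11.6 and 11.5 FPKM in the other KO libraries, against 14.98 to 15.4 FPKM in WT. Socs3, the inhibitor of STAT3 signalling, was at 35.1 FPKM in KO replicate 3 and at 21.9 and 21.03 FPKM in the other KO libraries, against 25.6 to 26.1 FPKM in WT. In each of these genes KO replicates 1 and 2 lay below and KO replicate 3 above all WT libraries. Over all libraries their limma adjusted p was 0.990 for Tnfrsf9, 0.993 for Ndrg1 and 0.976 for Socs3, and without KO replicate 3 each was called as lower (0.0165, 0.0159 and 0.0287). Heat shock genes, read as signs of stress, gave 0 calls among 7 tested with all libraries (median -0.00), and Hspe1, a mitochondrial chaperonin, was at 204.1, 196.3 and 124.7 FPKM in KO, against 144.3, 147.8 and 149.6 FPKM in WT. Without KO replicate 3, the fit in which 6 of the 9 factor genes were called, Hspe1 was called as higher too (log2 fold change 0.44, limma adjusted p = 0.00779). It was the only one of the 7 to be called, but Hspd1 and Hsph1 narrowly missed (0.21 each, limma adjusted p = 0.0535 and 0.0579). These were the 3 of 10 listed genes with KO replicates 1 and 2 above all WT libraries, and in each KO replicate 3 was below them. The part of these genes in that result was not tested.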
